A study of Homo sapiens with 18 samples.

Results

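The sites described here, called kept sites, are distal regions where the glucocorticoid receptor (GR) bound DNA after budesonide. At them the NF-κB subunit RELA stayed under a set limit. With IL-1β added, GR binding lost less than a set amount. They number 1639 of the 11571 sites of 400 bp in the deposited table (14.2%), and were selected on measured binding intensities. A site was taken when it lay more than 1 kb and at most 200 kb from the start of its nearest gene, had a GR intensity of at least 4 with budesonide, had a RELA intensity under 4 with IL-1β and with IL-1β-plus-budesonide, and lost less than 1 unit of GR intensity with IL-1β-plus-budesonide. Binding intensity is on a log2 scale, so a difference of 1 unit is a 2-fold difference. The 1639 sites were 30.2% of the 5427 distal GR sites and 64.1% of the 2556 distal GR sites without RELA. The remainder fell into 917 sites without RELA that lost 1 unit or more ("reduced sites") and 2871 sites at which RELA reached 4 ("RELA sites"), and these serve as comparisons.

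Cells were A549, a human lung adenocarcinoma line, wild type and kept in serum-free medium. They were not stimulated (NS) or were treated for 1 h with budesonide (300 nM), IL-1β (1 ng/mL) or both, and chromatin was precipitated with antibodies to GR or RELA. The series holds 18 libraries, of which 8 were for GR, 8 for RELA and 2 were inputs, with 2 libraries per condition. The table gives only 1 combined value per site and condition, for GR with budesonide, GR with both, RELA with IL-1β and RELA with both. There is therefore no replicate error for any intensity, the depth is unknown, and no difference between treatments could be tested. Words such as rise, fall and lost name differences between these combined values.

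GR is a ligand-activated transcription factor of the nuclear receptor family. Bound by a glucocorticoid, it enters the nucleus and occupies glucocorticoid response elements (GREs), which are inverted repeats of a short arm held apart by a spacer, and it also occupies chromatin through other factors such as AP-1. Most GR binding lies far from gene starts, in enhancers, and in airway epithelial cells it accompanies the anti-inflammatory and metabolic responses to inhaled glucocorticoids such as budesonide. IL-1β, an inflammatory cytokine, activates NF-κB, whose RELA subunit binds κB motifs near inflammatory genes.

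A GRE was sought in the central 200 bases as GNACA, any 3 bases and TGTNC, which has 8 defined positions. The sequences below are a selection of the named kept sites that held this element, shown because this element was the feature that most separated kept from reduced sites. They were read from the plus strand of GRCh38, with the 13 bases of the GRE in capitals, and the first 5 belong to sites with high GR intensity.
TSPYL2 site: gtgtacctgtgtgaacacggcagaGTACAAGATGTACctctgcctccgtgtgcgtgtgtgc
FKBP5 site: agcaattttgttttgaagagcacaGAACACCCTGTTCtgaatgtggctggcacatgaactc
TEAD1 site: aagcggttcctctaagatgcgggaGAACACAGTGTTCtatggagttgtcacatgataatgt
PKP2 site: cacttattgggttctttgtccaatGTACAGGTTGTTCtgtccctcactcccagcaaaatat
SYT15 site: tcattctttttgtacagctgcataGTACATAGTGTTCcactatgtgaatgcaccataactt
IRS1 site: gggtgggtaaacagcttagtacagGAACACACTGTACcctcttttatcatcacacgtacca
SCNN1B site: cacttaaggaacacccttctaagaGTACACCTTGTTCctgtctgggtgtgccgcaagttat
ANGPTL4 site: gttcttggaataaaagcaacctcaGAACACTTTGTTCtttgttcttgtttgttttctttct
DUSP6 site: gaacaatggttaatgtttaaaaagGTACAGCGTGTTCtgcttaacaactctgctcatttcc
TRAF1 site: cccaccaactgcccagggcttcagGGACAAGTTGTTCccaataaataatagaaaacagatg
UVRAG site: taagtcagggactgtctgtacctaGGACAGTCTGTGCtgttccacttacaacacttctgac
CLDN5 site: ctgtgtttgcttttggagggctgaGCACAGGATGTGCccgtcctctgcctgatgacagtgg
ZNF280B site: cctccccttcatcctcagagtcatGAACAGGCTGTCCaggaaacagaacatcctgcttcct
NUFIP1 site: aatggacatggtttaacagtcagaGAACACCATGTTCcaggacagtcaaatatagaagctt

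A smaller group of kept sites held an AP-1 element, TGANTCA, without a GRE. AP-1 is a dimer of FOS and JUN family proteins. A selection of the named examples is shown with the 7-base element in capitals, again on the plus strand. They are shown because the AP-1 share also separated kept from reduced sites, although it did not exceed that of all sites.
SLC6A6 site: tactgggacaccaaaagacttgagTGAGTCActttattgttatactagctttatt
SPRY2 site: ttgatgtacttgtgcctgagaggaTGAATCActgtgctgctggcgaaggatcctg
REL site: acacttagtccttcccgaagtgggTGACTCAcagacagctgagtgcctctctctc
HOPX site: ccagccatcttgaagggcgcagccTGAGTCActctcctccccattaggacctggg

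The GR intensity of the kept sites with budesonide ranged from 4.00 to 8.28 with a median of 5.12, and the middle 50% lay between 4.77 and 5.64. With IL-1β-plus-budesonide the range was 3.24 to 8.31 and the median 4.82. The change between the treatments had a median of -0.44 and ran from -0.9993 to 1.504. GR was higher with both treatments at 334 kept sites (20.4%, against 54.5% of all sites) and lower at the others. These values chose the sites, so they describe the group and are not a result about it. By comparison, the median change over all 11571 sites was 0.12.

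"Kept" thus covered a spread of behaviours. GR stayed at or above 4 with both treatments at 1491 of the 1639 sites (91.0%, against 68.2% of all sites in the table), and was below 4 at 148 (9.03%). It was lower by more than 0.5 at 745 sites (45.5%, against 27.0% of all sites) and higher by more than 0.5 at 85 (5.19%, against 38.2% of all sites). All 3 counts use the contrast that chose the sites, and nothing is read from them. GR was higher by 1 unit or more at 14 kept sites (0.854%, against 26.0% of all sites). The kept site nearest to the limit fell by 0.99934 and the reduced site nearest to it by 1.0004, and 149 kept sites lay within 0.1 of that limit.

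**Figure D1:**
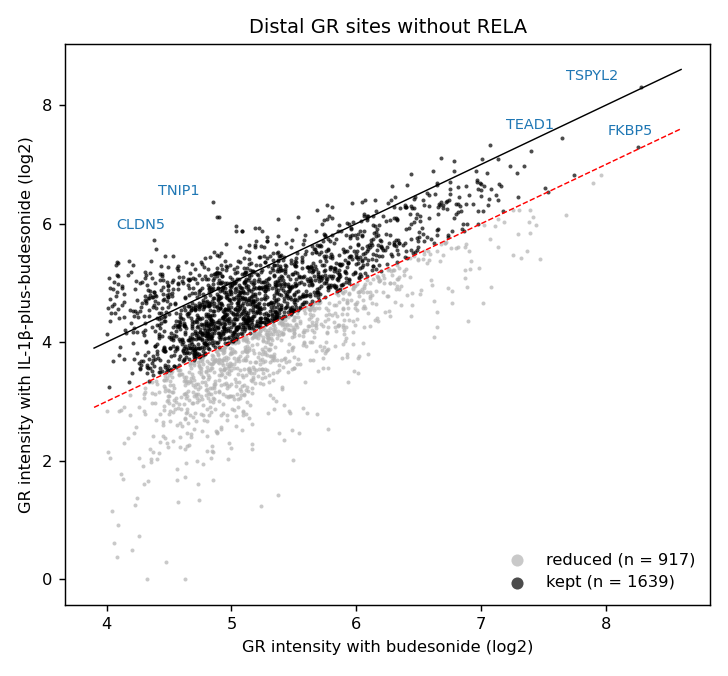
GR binding intensity (log2) with budesonide, on the x axis, against that with IL-1β-plus-budesonide, on the y axis, at each distal GR site without RELA. Black points are the 1639 kept sites, grey points the 917 reduced sites, the solid line marks equal values and the dashed line a fall of 1 unit, and the kept sites form 1 continuous cloud with the reduced sites.

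RELA was low at the kept sites by choice, with a median intensity of 2.44 with IL-1β and 3.21 with both treatments. With IL-1β, 88 sites (5.37%) were listed at 0 for RELA, and 19 (1.16%) were with both treatments. The same counts were 65 and 37 of the 917 reduced sites, and 236 and 77 of all 11571 sites. Within the range that the rule allowed, RELA was higher with both treatments than with IL-1β alone at 1284 of 1639 kept sites (78.3%, against 53.1% of all sites), with a median difference of 0.60. This difference had a median of 0.32 at the reduced sites, 0.47 at the RELA sites and 0.071 over all sites. The rule limited both RELA values, and nothing is read from the count. RELA with both treatments reached 3.9999 at the kept site nearest to the limit of 4, the RELA site nearest to it 4.0002, and 105 kept sites lay within 0.1 of it. The values thus ran up to the limit with no gap.

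The kept sites differed most from the other distal GR sites in their GREs, a property that the rule did not use. A full GRE was present at 473 of 1639 kept sites (28.9%, 95% Wilson interval 26.7 to 31.1), at 145 of 917 reduced sites (15.8%, 13.6 to 18.3) and at 307 of 2871 RELA sites (10.7%, 9.61 to 11.9). Over all sites of the table the share was 10.9%. In control sequence 2000 bases away it was 0.43% for the kept sites. The kept sites exceeded the reduced sites by 13.0 percentage points (Newcombe interval 9.75 to 16.2) and the RELA sites by 18.2 points (15.7 to 20.7). These intervals cover counting error over sites, which are not replicates of a treatment, and so carry no p-value.

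A looser element gave the same order. The core of the GRE, ACA, any 3 bases and TGT, has 6 defined positions. It was present at 51.5% of kept, 42.1% of reduced and 26.9% of RELA sites, against 26.0% of all sites and 5.9% in the control sequence of the kept sites. The difference between kept and reduced sites was 9.40 points (5.37 to 13.4).

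AP-1 elements divided the kept from the reduced sites but not from the RELA sites in the same direction. They were found at 322 kept sites (19.6%, 17.8 to 21.6), at 11.0% of reduced sites and at 22.7% of RELA sites, against 21.0% of all sites and 5.6% in the control sequence of the kept sites. Kept sites exceeded reduced sites by 8.63 points (5.76 to 11.4) and lay below RELA sites by a difference of -3.06 points (-5.49 to -0.572). The kept share thus lay near that of all sites, and the reduced sites were those that lay apart.

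κB motifs, the elements of NF-κB, were few at the kept sites. They were present at 39 sites (2.38%, 1.75 to 3.24), with 1.6% (1.1 to 2.3) in the control sequence, so the intervals of site and control overlapped. The share was 0.218% at the reduced sites, 8.36% at the RELA sites and 18.7% over all sites. Kept sites lay above reduced sites by 2.16 points (1.31 to 3.03), on only 39 and 2 sites with a match.

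The other elements separated the groups little. FOX motifs (TGTTTAC), bound by forkhead factors, were at 8.30% of kept, 11.6% of reduced and 8.81% of all sites, a difference from the reduced sites of -3.26 points (-5.81 to -0.872). C/EBP motifs, searched as TT, any 2 bases and GCAA, were at 17.4% of kept, 17.8% of reduced and 20.2% of all sites, and the interval of kept minus reduced ran from -3.53 to 2.63 points. TEAD motifs (GGAATG) were at 16.8%, 19.1% and 17.9% in the same order, with an interval of -5.43 to 0.819 points. ETS motifs (CCGGAAG) were at 10 kept sites (0.610%) and 1.21% of all sites. The NFI repeat, TTGGC, any 5 bases and GCCAA, was at 1 kept site and at 7 of all sites.

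The kept sites also had the larger GRE share within each range of GR intensity with budesonide. Among sites with a GR intensity of 4.5 to 5, 26.7% of kept (23.0 to 30.8) and 15.6% of reduced sites (11.7 to 20.4) held a GRE. At an intensity of 6 or more the shares were 42.3% (36.2 to 48.6), 17.7% (12.4 to 24.7) and, for the RELA sites, 17.4% (15.2 to 19.9). In the lowest range, 4 to 4.5, the shares were 17.5% (12.8 to 23.5) and 11.5% (6.19 to 20.5), whose intervals overlapped. The GRE share of the kept sites was 39.5% in the 410 sites with the most GR and 20.5% in the 410 with the least. AP-1 went the other way, from 29.4% of kept sites at intensities of 4 to 4.5 to 15.1% at 6 or more.

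GREs of the kept sites lay close to the middle of the site. In all, 484 GREs were found in the 473 sites, at a median of 9.5 bases from the centre, with 417 (86.2%) within 25 bases. Of the 162 GREs of the reduced sites 79.6% lay within 25 bases, and of the 318 GREs of the RELA sites 72.0%. GREs more than 50 bases from the centre made up 2.27%, 4.94% and 9.12%.

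The letters within the GRE varied as well. The second position of the left arm was A and the matching position of the right arm was T in 84 of 484 GREs of kept sites (17.4%, 14.2 to 21.0), as in the FKBP5, TEAD1, ANGPTL4 and NUFIP1 sequences above. The share was 11.1% (7.14 to 16.9) at reduced sites, an interval that overlapped, and 5.97% (3.86 to 9.14) at RELA sites. In 242 of the 484 GREs 1 arm had the letter, and in 158 (32.6%) neither had, as in the TSPYL2 and UVRAG sequences. The kept sites used 250 different 13-base elements. The most frequent were these, with the core in capitals.
Found 11 times: gaACAgaaTGTtc
Found 10 times: gaACAggaTGTtc
Found 8 times: gaACAttcTGTcc
Kept sites with A and T in the arms had a median GR intensity of 5.46 with budesonide, against 5.19 with the letter in 1 arm and 5.18 with neither.

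Within the kept sites, those with elements lost less GR. The median change was -0.35 at the 473 sites with a GRE and -0.47 at the 1166 without. It was -0.36 at the 264 sites with AP-1 but no GRE, -0.12 at the 58 sites with both elements and -0.50 at the 902 sites with neither, which were 55.0% of all kept sites. GR was higher with both treatments at 25 of the 58 sites with both elements (43.1%) and at 158 of the 902 with neither (17.5%). The share was 20.4% over the kept sites and 54.5% over all sites. This is a description within a group that was chosen on the change itself.

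Over all 2556 distal GR sites without RELA, the shares of both elements were lowest where GR fell most, without an even order among the kept ranges. The GRE share was 11.5% (7.21 to 17.9) where GR fell by more than 2 units, 18.1% (15.0 to 21.7) between -1.5 and -1, 27.0% (22.8 to 31.7) between -1 and -0.75, 22.9% (18.9 to 27.5) between -0.75 and -0.5, and 35.7% (30.1 to 41.7) between -0.25 and 0. It was 29.7% (24.4 to 35.7) where GR rose by up to 0.5 and 36.5% (27.0 to 47.1) at the 85 sites that rose by more than 0.5. The AP-1 share went from 7.19% in the first of these ranges to 30.5% (25.1 to 36.5) where GR rose by up to 0.5, and was 23.5% (15.8 to 33.6) above that. GR intensity with budesonide moved with these ranges, from a median of 5.27 between -1 and -0.75 to 4.43 above 0.5, and its part in them was not tested.

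RELA with both treatments and the change of GR were both limited by the rule, so their values within the kept sites are given as a description. At the 53 kept sites where RELA with both treatments was below 1, the median GR change was -0.70 and 45.3% held a GRE. Between 1 and 2, 2 and 3, and 3 and 3.5 the median changes were -0.50, -0.52 and -0.37 and the GRE shares 30.4%, 34.1% and 27.8%. At the 522 sites where RELA was between 3.5 and 4, the median change was -0.36 and 23.2% held a GRE. The GRE share was thus highest in the lowest range of RELA and lowest in the highest, with no even order between.

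The 10 kept sites with the most GR after budesonide lay near genes of varied function. Nearest genes are given by distance alone, and no effect on the gene was measured here. The strongest site, chrX:53071585-53071984 in GRCh38, lay in an intron of the orphan receptor gene GPR173, 10.4 kb from TSPYL2, and had a GR intensity of 8.28 with budesonide and 8.31 with both treatments. RELA there was 1.05 with IL-1β and 3.52 with both, so GR was level while RELA was higher with both, within the limit that the rule set. The next site, chr6:35601885-35602284, lay in an intron of FKBP5, which encodes a co-chaperone that restrains GR and is itself induced by glucocorticoids. GR there was 8.26 with budesonide and 7.30 with both, a fall of 0.96 that placed it just inside the group.

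The other strong sites were split in the same manner. The site near TEAD1, a transcription factor of the Hippo pathway, had GR values of 7.65 and 7.45 with budesonide and with both treatments. The site near SYT15, a synaptotagmin gene, had 7.40 and 7.23. The site in BAG1, a co-chaperone gene, had 7.35 and 6.97. At SLC6A6, the taurine transporter gene, the values were 7.29 and 6.85, and RELA was 0.20 with IL-1β and 2.61 with both. The site near ATG101, an autophagy gene, fell from 7.74 to 6.83, that of PKP2, a desmosomal protein gene, from 7.53 to 6.54, that of ASPH from 7.51 to 6.6 and that of CALD1, the caldesmon gene, from 7.29 to 6.45. Of these 10, TSPYL2 alone had higher GR with both treatments, against 20.4% of kept and 54.5% of all sites. RELA was higher with both treatments than with IL-1β at all 10, against 78.3% of kept and 53.1% of all sites. The rule used these values and the 10 were picked on GR with budesonide, so nothing is read from either count.

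The 5 kept sites with the largest rise, picked on that rise, all began below the kept median of 5.12 for GR with budesonide. The site in an intron of TNIP1, which encodes a partner of the NF-κB inhibitor A20, went from 4.86 to 6.36, with RELA at 2.00 and 3.44. The site near CLDN5, a tight junction gene, went from 4.38 to 5.73, and the site near ZNF280B from 4.09 to 5.35. The site in DISC1 went from 4.09 to 5.33, and that in UVRAG, an autophagy and endosome gene, from 4.88 to 6.11. A GRE was present at 3 of these 5 sites. At the other end, the 5 kept sites nearest to the limit, near MAP1B, PTPRM, AK4, NUFIP1 and LRRC66, each fell by 1.00 after rounding. The NUFIP1 site held a GRE with A and T in its arms, and had GR values of 5.15 and 4.15 with RELA at 0 and 0.097.

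Of 131 distal GR sites whose nearest gene was on a list of 44 glucocorticoid-induced genes, 34 were kept (26.0%, 19.2 to 34.1), 18 reduced and 79 with RELA, against 30.2% kept over all distal GR sites. PER1, a clock gene, had a kept site at chr17:8151715-8152114 with GR at 7.14 and 7.09. ZBTB16, a zinc finger repressor gene, had 3 kept sites of 6, and the strongest had GR values of 7.00 and 6.67. PDK4, which restrains glucose oxidation, had 3 kept sites of 5, and the strongest fell from 6.78 to 6.10. All 3 distal GR sites of TSC22D3, the gene of the anti-inflammatory protein GILZ, were kept. They had GR values of 6.48 and 6.10, 6.17 and 5.80, and 6.02 and 5.83, and none held a full match to the GRE. Weaker matches, which were far more frequent among the kept sites, were not given for single sites. At FKBP5, by contrast, 1 of 6 sites was kept, 3 were reduced and 2 had RELA.

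Metabolic, transport and growth factor genes held kept sites in similar shares. On the list of lipid and glucose metabolism, 15 of 41 sites were kept (36.6%, 23.6 to 51.9) with a median GR change of -0.63. The site of IRS1, an insulin receptor substrate gene, had GR values of 6.82 and 6.45, and that of ANGPTL4, an inhibitor of lipoprotein lipase, 6.43 and 6.17. RELA with IL-1β and with both was 2.64 and 3.57 at IRS1, and 0.80 and 2.79 at ANGPTL4. Among epithelial ion and water transport genes 9 of 26 were kept (34.6%, 19.4 to 53.8). SCNN1B, which encodes a subunit of the epithelial sodium channel, had a site with GR at 6.66 and 6.33 and RELA at 0.22 and 2.39. NEDD4L, whose ubiquitin ligase removes that channel from the membrane, had a site where GR fell from 6.56 to 5.78, with RELA at 2.13 and 3.92.

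Among EGFR and growth factor pathway genes 18 of 49 sites were kept (36.7%, 24.7 to 50.7), with a median change of -0.22. Both distal GR sites of SPRY2, an inhibitor of receptor tyrosine kinase signalling, were kept. The stronger, with the AP-1 element shown above, had GR values of 6.64 and 6.68. RELA there was 0.96 with IL-1β and 3.87 with both, just under the limit. Phosphatase genes that act on MAP kinases were also on this list. DUSP4 had 1 kept site of 6, and the other 5 had RELA. GR at the kept site was 5.93 and 6.01, and RELA was 1.79 and 3.82. DUSP6 had 2 kept sites of 3, with GR at 5.48 and 5.33 and at 5.09 and 4.66. DUSP10 had 3 of 5, at which GR fell from 5.86 to 4.87, from 4.80 to 4.19 and from 4.72 to 3.89.

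Circadian clock genes had the highest share, 7 kept of 16 sites (43.8%, 23.1 to 66.8), none reduced and 9 with RELA. This interval spans the 30.2% of all distal GR sites. Besides PER1, kept sites lay near HLF, with GR at 5.32 and 4.46, ARNTL (BMAL1), with 5.10 and 4.33, and BHLHE40, with 4.90 and 4.75. None of the 7 held a full match to the GRE, and weaker matches were not given for single sites.

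Of 42 distal GR sites near genes on a list of NF-κB targets, 8 were kept (19.0%, 9.98 to 33.3), 1 was reduced and 33 had RELA. The interval spans the 30.2% kept over all distal GR sites, and the rule itself left out the sites with RELA. The 8 belonged to 5 genes and had a median change of -0.03. BIRC3, an inhibitor of apoptosis, had 3 kept sites of 5, with GR values of 6.03 and 5.43, 4.85 and 4.91, and 4.40 and 4.29. The first of these thus fell by 0.60, inside the limit. At this locus the authors' paper reports a region with GR but no RELA where cotreatment reduced GR. By ChIP-qPCR it also reports RELA gained with cotreatment at several GR regions. Its strongest GR region lay about 11 kb before the BIRC3 start, where the site with GR at 7.62 and 7.9 lies. That site had RELA and was not kept. The paper's text states no position for the reduced region. The kept site that fell by 0.60, in an intron of BIRC3, fell most of the 5 and may be that region. There the paper finds a single GRE, while this kept site held no full match. Kept therefore does not mean unchanged in that work. TRAF1, a signalling adaptor of tumour necrosis factor receptors, had 2 kept sites, 1 that rose from 4.92 to 5.5 and 1 that fell from 4.85 to 3.98. The site near REL, an NF-κB subunit gene, had 4.95 and 4.56.

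Of 61 sites near actin, adhesion and matrix genes 12 were kept (19.7%, 11.6 to 31.3). LAMA3, a laminin chain gene of epithelial basement membrane, had 2 kept sites of 3, and 1 reduced. GR at the kept sites was 6.73 and 6.38, and 5.87 and 4.90. ACTN1 had 2 of 4, the stronger with GR at 5.87 and 5.32. At MYO10 1 site of 5 was kept, with GR at 5.86 and 5.98, while 2 were reduced and 2 had RELA. Of 24 sites near lung epithelial identity genes 5 were kept (20.8%, 9.24 to 40.5), near NKX2-1 (5.40 and 4.91), GATA6 (4.66 and 3.95), HOPX (4.5 and 4.48) and EPCAM (4.98 and 4.72 at the stronger of its 2). No distal GR site lay nearest to a gene on a list of 15 genes of other tissues.

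The kept sites were scattered over many genes. They had 1348 nearest genes, of which 1121 had a single kept site, 176 had 2 and 51 had 3 or more. MKLN1, which encodes muskelin, had the most, with 8 kept sites among 16 distal GR sites, spread from 179 kb before its start to 175 kb after it. GR change at these 8 ranged from -0.95 to 0.52. LPP, a focal adhesion gene, and PACSIN2, a membrane-bending protein gene, each had 5 of 9. ABCC4, an exporter of cyclic nucleotides, had 4 of 8 and RHOBTB3 had 4 of 5. ZNF280B also had 4 kept sites, and these were all of its distal GR sites.

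By GENCODE 44, 50.3% of the kept sites (47.9 to 52.8) lay in introns, 3.97% in exons and 45.7% outside genes. Reduced sites were in introns at 57.4% (54.1 to 60.5) and RELA sites at 48.5% (46.6 to 50.3), against 48.0% of all sites. The distance to the nearest start had a median of 47.0 kb, against 51.6 kb for reduced and 45.3 kb for RELA sites. Within 10 kb of a start lay 13.8% (12.3 to 15.6) of kept and 8.40% (6.77 to 10.4) of reduced sites. For RELA sites and for all sites this share was 14.1%. The rule limited the distance of kept, reduced and RELA sites, but not that of all sites. Nothing is therefore read from the likeness to all sites. GC content had a median of 44.25% in kept, 42.75% in reduced and 46.25% in RELA sites.

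Kept sites had RELA nearby less often than the RELA sites had. Another site with RELA lay within 10 kb of 327 kept sites (20.0%), of 18.1% of reduced (15.7 to 20.7) and 39.8% of RELA sites (38.0 to 41.6), against 28.9% of all sites. The kept and reduced groups did not separate by this measure. Another GR site lay within 10 kb of 25.6% of kept (23.6 to 27.8), 30.1% of reduced (27.2 to 33.1) and 36.9% of RELA sites, against 25.7% of all sites, so the kept share lay at that of the whole table. Another kept site lay that near to 134 kept sites (8.18%, 6.94 to 9.60), against 5.39% of all sites. A kept site was also that near to 8.62% of reduced (6.97 to 10.6) and 9.65% of RELA sites (8.62 to 10.8). By this measure the kept sites did not stand out from the other distal GR sites. The 327 kept sites with RELA within 10 kb held a GRE at 20.8%, and the 1312 without at 30.9%, while their median GR changes were -0.40 and -0.46.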

How the data were processed

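GR and RELA ChIP-seq values were taken from the authors' deposited table. Its binding intensity is, per site and condition, 1 value deposited on a log2 scale from the 2 libraries. The base was settled from the values, since low intensities raised to base 2 repeat 1 common spacing 65 to 202 times per condition, against 6 to 9 times with base e. No source used here states how the authors normalized the intensities, so levels compared between conditions rest on it. The authors aligned reads with bowtie2 2.4.4 to GRCh38, and the submitters' notes list FastQC 0.10.1, MACS2 2.2.7.1 and DiffBind 3.2. The table also holds 5 columns of the authors' own comparisons with NS (fold, FDR, and labels of significance, behavior and trend), which were not used. No column of unmapped samples was left aside.

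Site starts were counted from 0 and converted. Sequences came from GRCh38 and places from GENCODE 44. Distances are the deposited ones, and a start that GENCODE 44 also gives was met at 57.6% of the 11284 sites whose gene symbol it holds. Motifs had to match in full on either strand within 100 bases of the site's centre, overlapping matches of different motifs were all counted, and the control was the window 2000 bases downstream. The κB motif was GGGRNWYYCC. The search found all planted elements in simulated data. Shares have 95% Wilson intervals and differences Newcombe intervals. No test was possible, because no replicate values were at hand. Python 3.11.15, pandas 2.3.3, SciPy 1.17.1, statsmodels 0.14.6 and Matplotlib 3.10.9 were used.

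The sites and 9 gene lists were chosen with earlier results of these data known. Sites named were the 10 with most GR, the 5 with the largest rise, the 5 nearest the limit on the fall, those of the 5 genes with most sites (ties by summed GR intensity, which among 4 genes with 4 sites took ABCC4 and RHOBTB3) and up to 4 of each list. Other sites of the genes so named were also given.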

Additional observations from a re-analysis of the deposited data

How the results depend on the processing

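The choice of limits set how many sites were kept. In place of 1639, there were 955 kept sites with a GR intensity of at least 5, 567 with RELA under 3 and 894 with a fall under 0.5. Under these 3 limits the median GR change was -0.51, -0.53 and -0.13, and the GRE share 32.3%, 34.6% and 32.1%. The GRE share was 74.4% with 7 of 8 positions and 51.5% with the 6 core positions. The AP-1 share was 28.3% over the whole site and 22.0% with a fall under 0.5. The κB share was 25.7% with 8 of 9 positions, 3.72% over the whole site, 1.36% with GR of at least 5 and 3.47% with a fall under 0.5. With sites up to 100 kb the median distance was 34.1 kb. Another kept site lay within 5 kb of 4.64% and within 50 kb of 22.8%.

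In alternatives chosen after seeing the data, the excess of GREs over reduced sites was 8.94 points with 7 of 8 positions, 9.40 with the core and 17.0 with RELA under 3. It was positive under each of the 7 alternatives tried, as was that of AP-1 under each of its 5. Differences from the RELA sites, and those of the other elements and of position, were not recomputed. Of 44 values recomputed, 21 stayed within the interval of the reported value, or for the number of sites within 1.5 times. The cause of these shifts was not tested beyond the alternatives themselves.

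With 1 combined value per condition, the spread between the 2 libraries and the depth are unknown, and 149 kept sites lay within 0.1 of the limit on the fall. No paired analysis was possible because the columns carry no replicate and no result comes from a test.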

Other observations

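The kept share of the distal GR sites without RELA differed along the chromosomes. It was highest on chromosomes 21 (15 kept, 2 reduced) and 19 (46 kept, 9 reduced), at 88.2% and 83.6%, and lowest on chromosome 15 (48 kept, 39 reduced) at 55.2%, against 64.1% over all. These chromosomes were picked out after the values were seen.

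Kept sites in exons were few, 65 in all. They had a median GR intensity of 5.26 with budesonide and a median change of -0.35, and 23.1% held a GRE. The 825 in introns and 749 outside genes each held one at 29.1%, with median changes of -0.47 and -0.42.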
